A study of Mus musculus with 12 samples.

Results

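The proteasome subunits measured here are the 41 genes Psma1 to Psma7, Psmb1 to Psmb10, Psmc1 to Psmc6, Psmd1 to Psmd14 and Psme1 to Psme4. They were found among the array's probes through the transcript accession of each probe, matched to RefSeq, and all 41 were among the 19801 genes tested. Of these 13952 had a RefSeq gene symbol. The rest were accessions without a match, each counted as a gene in the shares of all genes below. They were represented by 51 probes, and 10 of them had more than 1 probe. Primary microglia, macrophages that reside in the brain, were shaken off mixed glial cultures of neonatal C57BL/6 mouse brains and treated for 16 h. The untreated group received T cell medium (IMDM), the Th1 group received Th1 supernatant, and the Th17 group received Th17 supernatant, that is, the medium of cultured helper T cells of either type with whatever those cells had released into it. The study's methods describe how the Th1 supernatant was made, from restimulated cells differentiated in vitro and diluted with an equal volume of fresh medium, and give no such account of the Th17 supernatant. Each group had 4 arrays, 1 from each of the experiments numbered 12, 13, 14 and 16, so that Th17 13, for example, is the Th17 array of experiment 13.

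The proteasome is the protease that degrades ubiquitin-tagged proteins in the cytosol and nucleus. Its barrel, the 20S core, is built of alpha and beta rings, and only some beta subunits cut peptides. The 19S cap recognises and unfolds substrates, while PA28 and PA200 are alternative caps. Interferon-gamma, the signature cytokine of Th1 cells, is known to induce the catalytic subunits Psmb8 (LMP7), Psmb9 (LMP2) and Psmb10 (MECL-1), which replace Psmb5, Psmb6 and Psmb7 in newly built cores to form the immunoproteasome, and also the PA28 subunits Psme1 and Psme2. The immunoproteasome is best known for making peptides that fit MHC class I. These 5 genes are called the immune subunits below, and the other 36 the constitutive ones.

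RefSeq's promoter table (GRCm38.p6) held 300 bases around the transcription start, 250 before it and 50 after it, for 35 of the 41 subunits. The others were Psmb7, Psmb1, Psmb2, Psmc3, Psmd3 and Psmd7. Both strands were searched for 3 motifs. They were the interferon-stimulated response element (ISRE, GAAA followed after any 2 bases by another GAAA), the gamma-activated site of interferon-gamma signalling (GAS, TTCNNNGAA) and the antioxidant response element used by Nfe2l1 and Nfe2l2 (ARE, TGACNNNGC). Psmd9 alone held matches to more than 1 motif, and these did not overlap. The following stretches are shown because they belong to an immune subunit that holds a match, to the immune subunit with the largest change, and to a constitutive subunit that an immune one replaces. Letters in capitals mark a match. Psmb8 is shown for chr17:34197945-34198194 on the plus strand, the 250 bases before its start, and holds a GAS match at bases -97 to -89. Psmb9 is shown for chr17:34187331-34187580 on the minus strand, also the 250 bases before its start, and holds none of the 3 motifs. Psme1 is shown for chr14:55578489-55578518 on the plus strand, 30 bases around its start, and holds an ISRE match on the opposite strand at bases 10 to 19 of the transcript. Psmb5 is shown for chr14:54617996-54618245 on the minus strand, the 250 bases before its start, and holds an ARE match at bases -47 to -39.
Psmb8: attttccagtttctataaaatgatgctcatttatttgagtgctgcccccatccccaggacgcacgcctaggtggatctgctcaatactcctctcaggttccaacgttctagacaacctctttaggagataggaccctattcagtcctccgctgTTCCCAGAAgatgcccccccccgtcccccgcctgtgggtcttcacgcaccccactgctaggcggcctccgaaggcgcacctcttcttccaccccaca
Psmb9: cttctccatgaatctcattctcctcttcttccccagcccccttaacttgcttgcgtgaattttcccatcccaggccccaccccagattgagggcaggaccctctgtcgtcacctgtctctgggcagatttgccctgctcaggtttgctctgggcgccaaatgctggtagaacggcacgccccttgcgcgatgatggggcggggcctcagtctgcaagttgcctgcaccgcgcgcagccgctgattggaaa
Psme1: gtttcgagctgtgcTTTCGCTTTCccttcc
Psmb5: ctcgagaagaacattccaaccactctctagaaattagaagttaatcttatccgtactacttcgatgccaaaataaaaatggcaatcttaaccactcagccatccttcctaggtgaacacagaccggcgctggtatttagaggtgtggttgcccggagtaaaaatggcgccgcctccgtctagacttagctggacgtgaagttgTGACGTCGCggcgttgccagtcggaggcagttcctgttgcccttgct

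Across the 5 immune subunits, 1 promoter held an ISRE match (Psme1) and 1 a GAS match (Psmb8), and 0 held an ARE match. Among the 30 constitutive subunits with a promoter entry, ISRE matches were found in 3 (Psmb3, Psmd4 and Psmd9), a GAS match in 1 (Psmd2) and ARE matches in 6 (Psmb5, Psmb6, Psmc6, Psmd9, Psmd12 and Psme4). Of all 32851 promoters of this length in the table, 3.44% held an ISRE match, 8.3% a GAS match and 12.4% an ARE match. These matches are a description of letters in a fixed window. Psmb9 and Tap1, which encodes a subunit of the peptide transporter, start 226 bases apart on opposite strands (first bases 34187330 and 34187556 of chromosome 17), so that the stretch printed for Psmb9 lies between the 2 genes and runs into the first bases of Tap1.

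Between 54.5% and 65.0% of the 39429 probes were well above background on an array, and no spot was saturated. Before any scaling, 3 in 4 signals lay under a value that was between 1200 and 2214 intensity units by array, highest on Th17 13. Every subunit was well above background on all 12 arrays, so none owed its place in the fit to 1 group. Of 12 microglial marker genes 11 were measured, and they were well above background on every array, with a summed level of 20.02 to 20.57 on the log2 scale. After Th1 supernatant 2 of these markers were called higher (Aif1 and P2ry12) and 3 lower (Cx3cr1, Tmem119 and Trem2). Markers of other cells were measured in part. The 7 measured astrocyte markers summed to 12.0 to 13.6 on the log2 scale, the 5 measured T cell markers to 12.7 to 13.5 (Cd3d, Cd3g, Cd8a and Cd2 were too dim to be tested, Lck was called higher and Cd28 and Cd5 lower after Th1 supernatant), the 8 oligodendrocyte markers to 13.8 to 14.997, the 4 neuronal markers to 12.0 to 14.0 and the 3 monocyte and granulocyte markers to 12.0 to 13.4. The 4 endothelial markers summed to 9.29 to 10.3 in untreated microglia, to 12.1 to 13.0 after Th1 supernatant and to 8.92 to 10.3 after Th17 supernatant, with Vwf called higher after Th1 supernatant. Single markers within the other lists moved in both directions after Th1 supernatant. Of the oligodendrocyte markers Mag (2.06) and Cnp (1.67) were called higher and Cspg4 (-4.24) and Mbp (-1.60) lower on the log2 scale. Of the neuronal markers Syn1 (1.78) was called higher and Rbfox3 lower, the latter not well above background on any Th1 array. The astrocyte marker Fabp7 (-2.24) and the granulocyte marker Elane (-1.15) were called lower. The part of other cells in the changes below was not tested. In such bulk RNA a change in the number of cells of a type and a change in RNA per cell cannot be told apart.

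Th1 supernatant raised all 5 immune subunits over 2-fold, by 3.17-fold to 9.27-fold in their mean, and 1 of the 36 constitutive subunits, Psma5. A gene was called here where limma's adjusted p (Benjamini-Hochberg over all genes) was under 0.01 and the change exceeded 2-fold. At this threshold 7.49% of all genes tested were called higher and 7.88% lower, against 6 of 41 subunits higher and 0 lower. Whatever the size of the change, 21 subunits passed the adjusted p of 0.01 as higher and 1 as lower, where 13.9% of all genes were higher and 16.2% lower. The median log2 fold change was 2.35 over the immune subunits, 0.36 over the constitutive ones and -0.06 over all genes.

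The catalytic subunit Psmb9 moved most. On the log2 intensity scale its level was 13.53, 12.96, 12.33 and 12.75 on untreated arrays 12, 13, 14 and 16, and 16.34, 16.26, 15.93 and 15.89 on the Th1 arrays in the same order. Every Th1 array lay above every untreated one. The log2 fold change was 3.21 ± 0.36 (SE, n = 4 arrays per group; limma adjusted p = 2.94e-05), with differences of 2.82 to 3.598 within the 4 experiments.
Psmb8, which takes the place of Psmb5, was at 14.29, 13.98, 13.92 and 13.88 in untreated microglia and at 16.63, 16.92, 16.82 and 16.38 after Th1 supernatant. The groups again did not overlap, and the log2 fold change was 2.67 ± 0.29 (limma adjusted p = 2.58e-05).
Psmb10, the third inducible catalytic subunit, was at 15.81, 15.55, 15.50 and 15.38 in untreated microglia and at 17.94, 17.90, 18.003 and 17.79 after Th1 supernatant. Its 4 Th1 arrays lay within an SD of 0.09, the tightest of the 3, and it rose by 2.35 ± 0.19 on the log2 scale (limma adjusted p = 3.14e-06).

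Both subunits of the PA28 alpha/beta cap, which opens the barrel without ATP, rose as well. Psme1 (PA28 alpha) was at 14.78, 14.34, 14.42 and 14.06 in untreated microglia and at 16.86, 16.77, 16.75 and 16.19 after Th1 supernatant. Th1 16 was the lowest of its group and still above every untreated array, and the log2 fold change was 2.24 ± 0.28 (limma adjusted p = 6.89e-05).
Psme2 (PA28 beta) was at 16.48, 16.09, 16.28 and 16.19 in untreated microglia and at 17.92, 17.91, 18.02 and 17.84 after Th1 supernatant, and it rose by 1.66 ± 0.21 (limma adjusted p = 7.26e-05). A second probe of Psme2 rose by 2.31 ± 0.26. The arrays lay on 3 slides that each held all 3 groups, and the 5 immune subunits were higher after Th1 supernatant within each slide, Psmb10 by 2.25, 2.46 and 2.41 and Psme2 by 1.64, 1.69 and 1.65 on slides 1, 2 and 3. With the slide as a block Psmb8 rose by 2.56, Psmb10 by 2.30, Psme1 by 2.19 and Psme2 by 1.59.

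**Figure D1:**
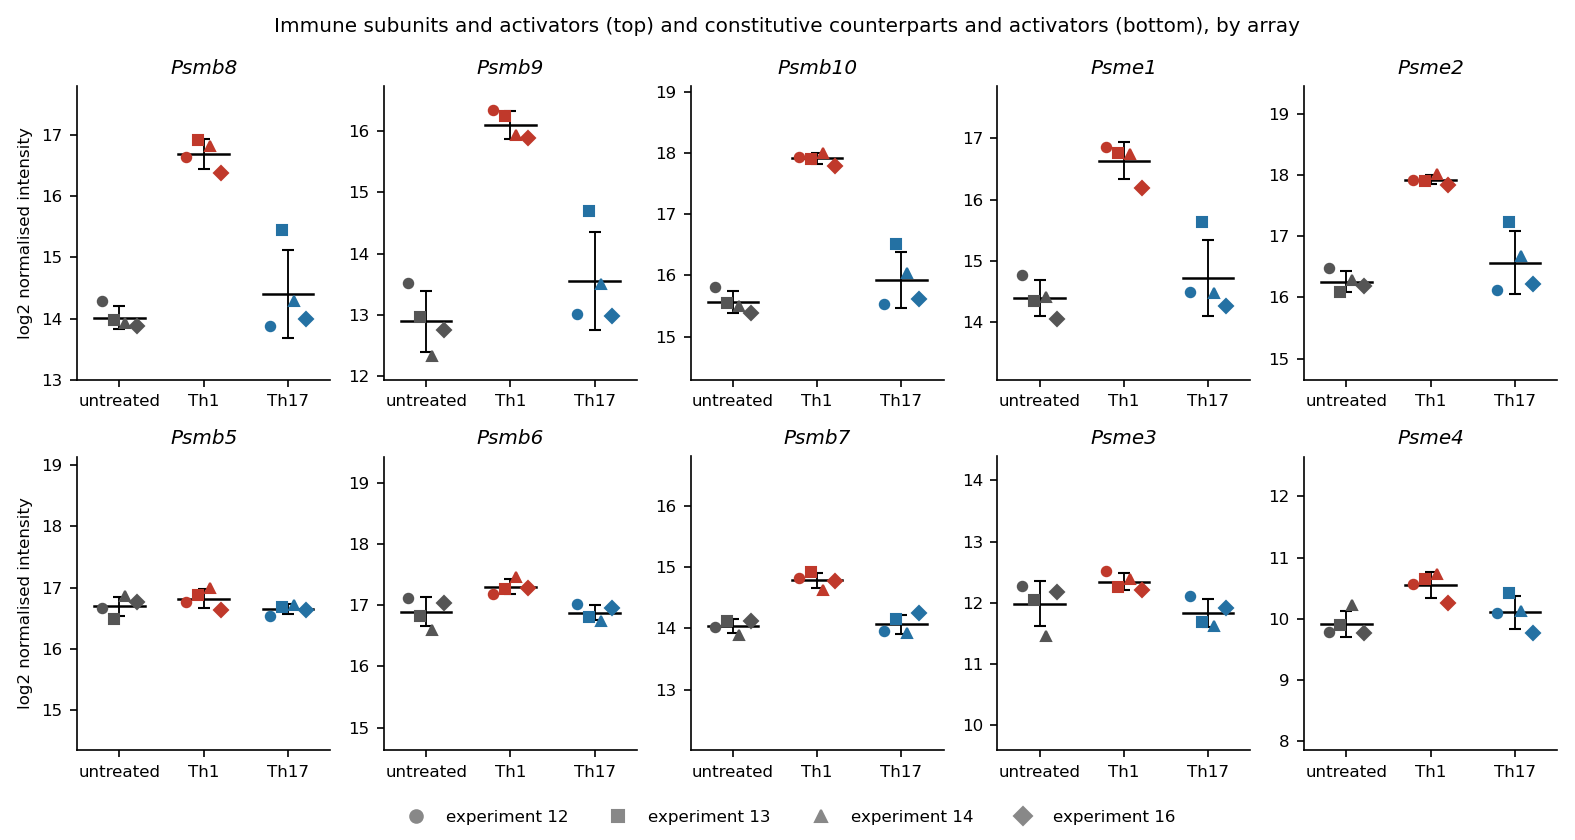
Log2 normalised intensity of 10 subunits on each array, by group; each panel has its own vertical axis of equal span, each symbol is 1 array, its shape gives the experiment, and the bar and whiskers are the mean and SD of 4 arrays. In the upper row every Th1 array lies above every other array, and among the Th17 arrays that of experiment 13 is the highest, while the lower row moves far less.

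The constitutive partners did not follow to the same extent. Psmb5, the chymotrypsin-like subunit, was at 16.49 to 16.86 in untreated microglia and at 16.64 to 16.998 after Th1 supernatant. These ranges overlapped, and the log2 fold change of 0.12 ± 0.11 did not pass (adjusted p = 0.389, 95% interval -0.12 to 0.37). Psmb6, the caspase-like subunit, was at 16.59 to 17.11 against 17.18 to 17.47, a log2 fold change of 0.41 ± 0.13 that did not pass either (adjusted p = 0.022), although the 2 groups did not overlap. Psmb7, the trypsin-like subunit, rose by 0.74 ± 0.11 (adjusted p = 0.000219), from 13.89 to 14.13 in untreated microglia to 14.62 to 14.92 after Th1 supernatant. It stayed under the 2-fold threshold.

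Because each immune catalytic subunit replaces a given constitutive one, the difference between the 2 log2 values was taken on each array and compared between groups by an exact permutation test over arrays. This compares changes and not the levels of different probes. With 4 arrays against 4 the smallest two-sided p is 0.0286, and 15 such tests were computed, 5 pairs in 3 comparisons. After Th1 supernatant Psmb8 moved relative to Psmb5 by 2.55, Psmb9 relative to Psmb6 by 2.80 and Psmb10 relative to Psmb7 by 1.61 on the log2 scale, which is 5.85-fold, 6.98-fold and 3.05-fold. Psme1 moved relative to Psme3 (PA28 gamma, the nuclear homologue) by 1.88 and Psme2 by 1.31. All 5 pairs reached the smallest p that this exact permutation test can give, 0.0286 (0.0476 after Benjamini-Hochberg adjustment over the 15 tests). The test ignores the pairing of arrays by experiment. A paired exact permutation test within the 4 experiments, chosen after seeing the data, gave 0.125 for each pair, its smallest possible p. The per-array values in the Th1 group, taken relative to the untreated mean, were 2.41 to 2.73 for the first pair, 2.46 to 3.16 for the second and 1.46 to 1.86 for the third. No Th1 array reached down to the untreated range in any pair. Of the 3 replaced subunits Psmb7, the partner of Psmb10, was the only one that had passed the test.

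**Figure D2:**
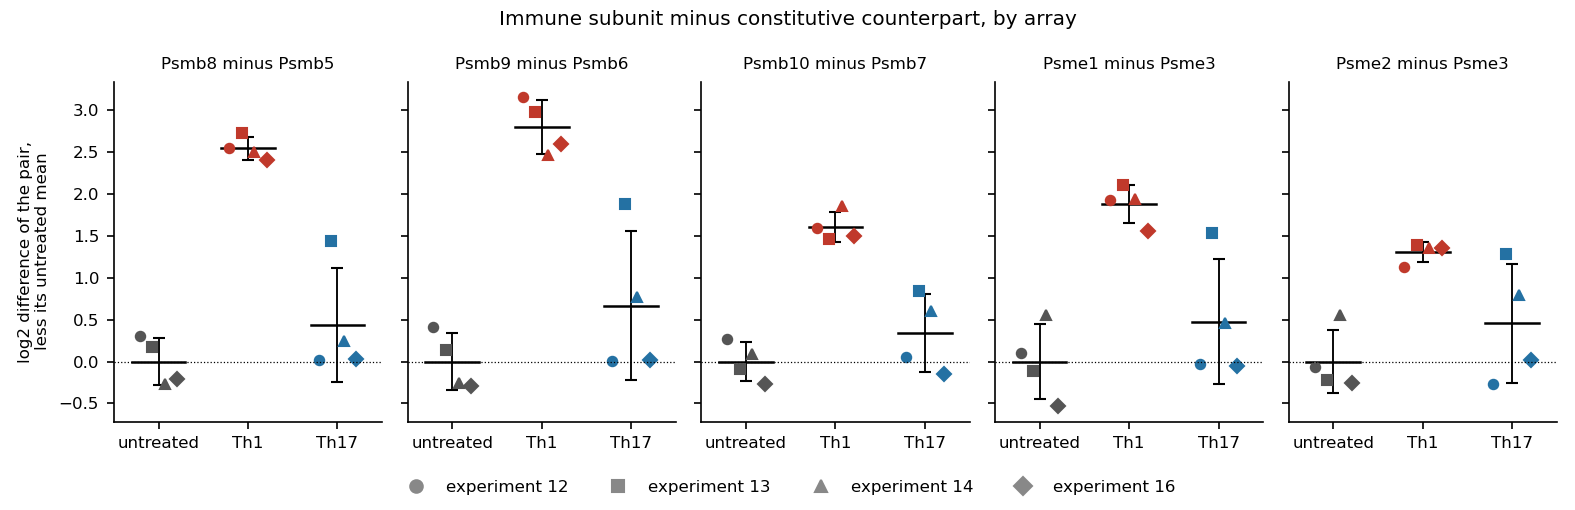
Log2 value of an immune subunit minus that of its constitutive counterpart on each array, less the mean of the 4 untreated arrays; symbols are arrays, shapes are experiments, and bars and whiskers are the mean and SD of 4 arrays. All Th1 arrays lie above all untreated ones in each of the 5 pairs, and Th17 13 is the highest Th17 array in each.

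Smaller rises ran through the rest of the 20S core. Of its 14 constitutive subunits 10 passed the adjusted p of 0.01 as higher and 0 as lower, with a median log2 fold change of 0.62. Of all genes 13.9% passed as higher and 16.2% as lower. In the alpha ring, which gates the barrel, Psma5 was at 14.41, 14.47, 14.82 and 14.34 in untreated microglia and at 15.80, 15.92, 16.03 and 15.38 after Th1 supernatant. It was higher in all 4 experiments, by 1.04 to 1.44, and its log2 fold change of 1.27 ± 0.18 passed the 2-fold threshold (adjusted p = 0.000169). Psma4 (0.91 ± 0.09), Psma7 (0.87 ± 0.10), Psma3 (0.72 ± 0.10) and Psma2 (0.66 ± 0.09) rose by less than 2-fold. Psma6 (0.35 ± 0.14, adjusted p = 0.0616) and Psma1 (0.11 ± 0.09, adjusted p = 0.338) did not pass.
Among the beta subunits without catalytic activity, Psmb2 was at 11.96 to 12.09 in untreated microglia and at 12.61 to 13.23 after Th1 supernatant, a rise of 0.94 ± 0.14 (adjusted p = 0.000219). Psmb4 rose by 0.58 ± 0.09, Psmb3 by 0.54 ± 0.09 and Psmb1 by 0.35 ± 0.09. Without Th1 16, on which Psmb2 was lowest, the change of Psmb2 was 1.06 and passed the 2-fold threshold.
With the experiment number as a block the constitutive subunits Psmd7, Psmd8 and Psmd9 passed as higher as well, which made 24 subunits in all. Calls over all genes rose too, with 3491 passing as higher in place of 2749.
The scaling between arrays bears on these values. With each array scaled to its 75th percentile in place of quantile normalisation, the median over the constitutive 20S subunits was 0.78 in place of 0.62 while that of all genes stayed at -0.06, and Psmb2, Psmb7, Psma4 and Psma7 passed the 2-fold threshold as well, which made 10 subunits called.

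The 19S cap moved less. Its 6 ATPases, the ring that unfolds substrates, had a median log2 fold change of 0.23. Of these 3 passed as higher, where 13.9% of all genes did: Psmc4 (0.48 ± 0.11), Psmc5 (0.39 ± 0.10) and Psmc3 (0.37 ± 0.08). A second probe of Psmc3 did not pass (0.30 ± 0.09, adjusted p = 0.018). With normexp background correction Psmc5 did not pass (adjusted p = 0.0164), nor did Psmb1 of the 20S core (adjusted p = 0.0117). Psmc1, Psmc2 and Psmc6 changed by 0.04 to 0.09 and did not pass.
Of the 11 non-ATPase subunits, which form the scaffold and the lid, 1 passed as higher and 1 as lower. These shares were no larger than the 13.9% higher and 16.2% lower of all genes. Psmd3, a lid subunit, was at 15.24 to 15.46 in untreated microglia and at 15.64 to 16.13 after Th1 supernatant (0.55 ± 0.11, adjusted p = 0.0022). Psmd1, the large scaffold subunit of the base, was the only subunit that passed as lower. It was at 14.95, 14.99, 15.07 and 15.17 in untreated microglia and at 14.38, 14.63, 14.85 and 14.57 after Th1 supernatant, a log2 fold change of -0.44 ± 0.11 (adjusted p = 0.00706). It was lower in all 4 experiments, with differences of -0.60 to -0.22, and the groups did not overlap. Under the removal of single arrays its adjusted p ran from 0.00294 to 0.0217 and it passed when Th1 14, Th17 13 or Th17 14 was left out, and not when any other single array was. The count of this group depended on the scaling and on whether the experiment number was a block. With 75th percentile scaling, and likewise with the deposited value table, 6 of the 11 passed as higher (Psmd3, Psmd4, Psmd7, Psmd8, Psmd12 and Psmd13) and 0 as lower, which made 9 of the 17 subunits of the cap in place of 4, and Psmd1 did not pass. Over all 41 subunits 28 then passed as higher in place of 21. Calls over all genes moved the same way. With 75th percentile scaling 2996 genes passed as higher and 2850 as lower, in place of 2749 and 3207.
The other 9 non-ATPase subunits changed by 0.02 (Psmd2, which is bound by ubiquitin-like domains) to 0.45 (Psmd8, in the lid). With quantile normalisation and no block they did not pass, among them the deubiquitinase Psmd14 (0.28 ± 0.14) and the ubiquitin receptor Psmd4 (0.23 ± 0.10). With the experiment number as a block, Psmd7 and Psmd8 passed as higher. Of the 3 chaperones that assemble the base, Psmd10 (gankyrin) rose by 0.68 ± 0.14 (adjusted p = 0.00192). Psmd9 (0.38 ± 0.13, adjusted p = 0.0333) and Psmd5 (-0.15 ± 0.13, adjusted p = 0.38) did not pass, although Psmd9 did with the block.
Of the remaining activators, Psme4 (PA200) rose by 0.63 ± 0.16 (adjusted p = 0.00805), from 9.77 to 10.23 in untreated microglia to 10.25 to 10.73 after Th1 supernatant. A second probe of Psme4 did not pass (0.32 ± 0.17, adjusted p = 0.154). Psme3 was at 11.46 to 12.27 against 12.21 to 12.52 and did not pass (0.36 ± 0.18, adjusted p = 0.128).

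Without regard to the size of the change, 29 of the 41 subunits lay higher on every Th1 array than on every untreated array, and 1 lower, where 18.8% of all genes lay higher in this way and 21.9% lower. By role these were all 5 immune subunits, 12 of 14 constitutive 20S subunits, 9 of 17 subunits of the 19S cap, 2 of 3 chaperones and 1 of the 2 other activators.

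**Figure D3:**
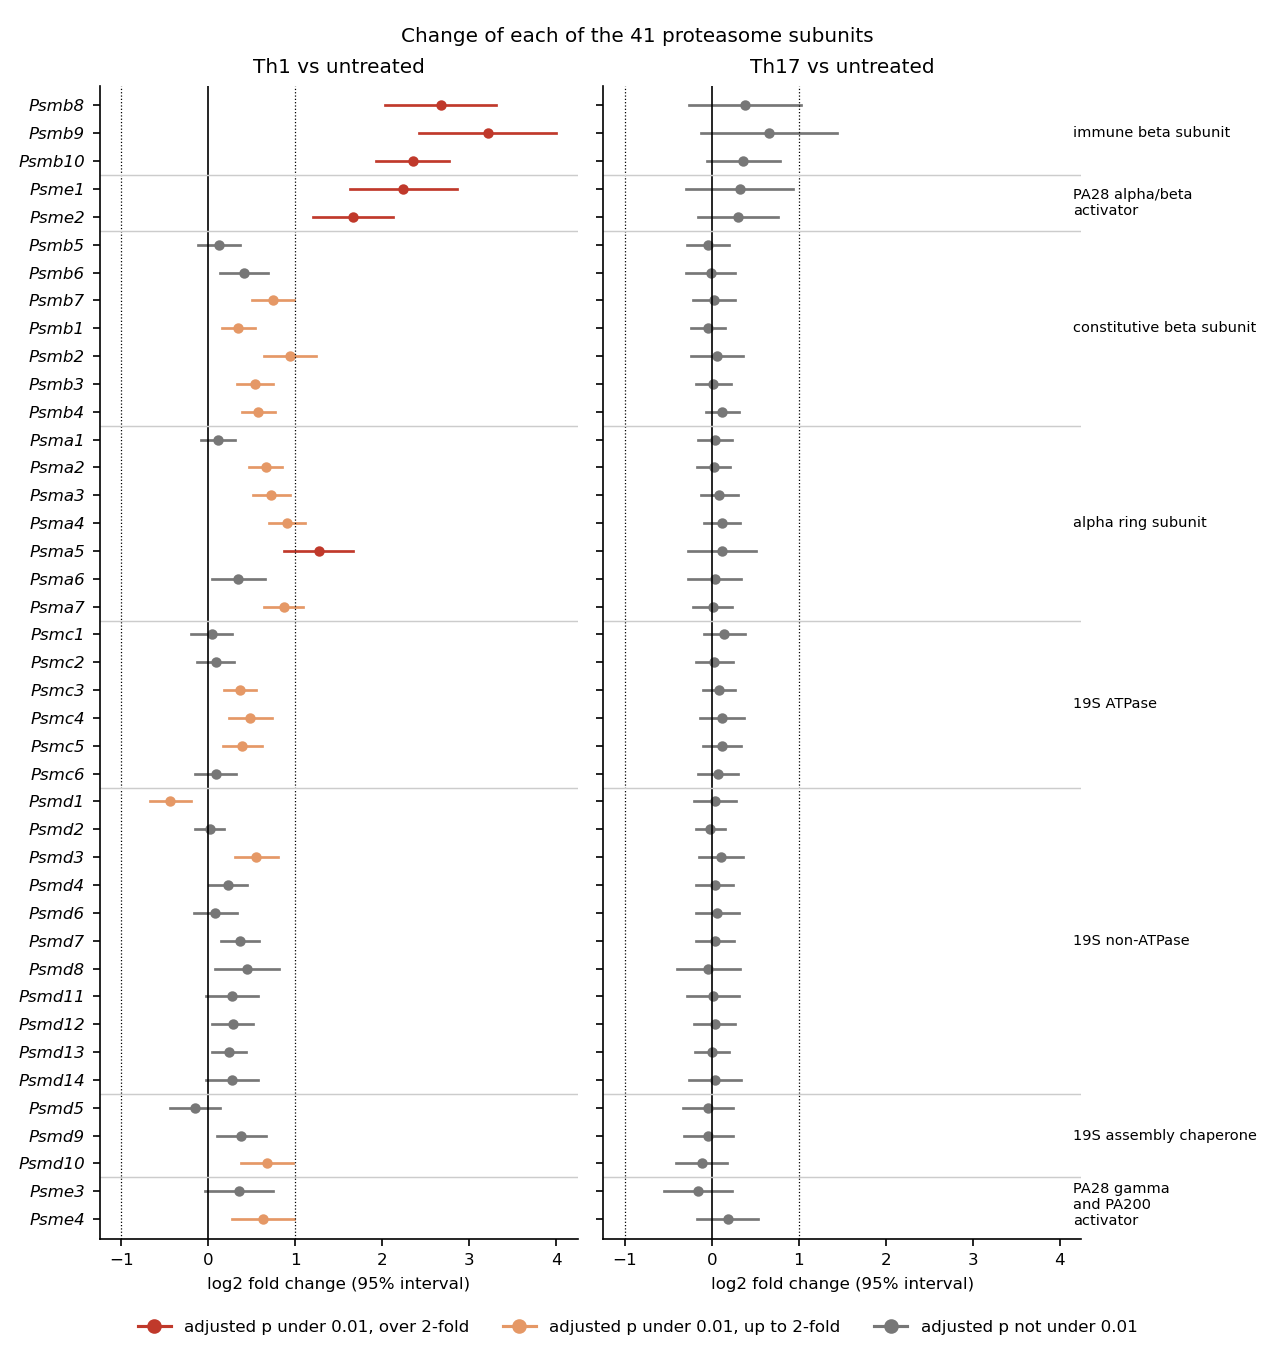
Log2 fold change of each subunit with its 95% interval from the limma fit, grouped by role, for Th1 against untreated (left) and Th17 against untreated (right); dotted lines mark 2-fold. On the left the immune subunits lie at 1.66 to 3.21 and the constitutive ones at -0.44 to 1.27, and on the right every interval includes 0.

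Th17 supernatant changed no subunit at the threshold used. Of all 19801 genes 0 were called in either direction (0% higher and 0% lower), also whatever the size of the change, and the smallest adjusted p of any gene was 0.603. At an unadjusted p under 0.05 limma counted 325 genes and 0 of the 41 subunits, where evenly spread p would give 990 genes. This fit did not use the pairing of arrays by experiment, so the low counts cannot show that nothing changed. With the experiment number as a block 0 genes were called as well. The median change of the constitutive subunits was 0.03 and that of the immune ones 0.36 on the log2 scale, all 5 being positive.
The arrays of this group differed among themselves. Psmb8 was at 13.87, 15.45, 14.29 and 13.99 on Th17 arrays 12, 13, 14 and 16, and Psmb9 was at 13.02, 14.69, 13.51 and 12.98. Psmb10 was at 15.53, 16.51, 16.05 and 15.62, Psme1 at 14.49, 15.63, 14.48 and 14.27, and Psme2 at 16.12, 17.24, 16.68 and 16.21. Th17 13 was the highest of the 4 arrays for each of the 5 immune subunits and lay above every untreated array for each, but below every Th1 array. Th17 12 lay below untreated 12 for all 5, and untreated 12 was itself the highest untreated array for each of the 5.
For Psmb9 the log2 fold change over the 4 arrays was 0.66 ± 0.36 (95% interval -0.13 to 1.44), and without Th17 13 it was 0.28. For Psmb8 it was 0.39 ± 0.29 and 0.04 without that array, for Psmb10 0.36 ± 0.19 and 0.17, for Psme1 0.32 ± 0.28 and 0.02, and for Psme2 0.30 ± 0.21 and 0.08. Among the constitutive subunits the largest changes were 0.18 for Psme4, -0.15 for Psme3 and 0.14 for Psmc1, none of which passed. Adjusted p was 1 for every immune subunit in this comparison. No subunit had groups that did not overlap (0 of 41 higher and 0 lower, where 0.53% of all genes lay higher on every Th17 array and 0.449% lower). The upper ends of the 95% intervals, 0.76 for Psme2 to 1.44 for Psmb9, are the largest mean changes that these 4 arrays leave within the interval.
In the pair differences Th17 13 was again the highest. Psmb9 minus Psmb6 stood at 0.00, 1.89, 0.77 and 0.02 above the untreated mean on the 4 Th17 arrays, with a mean of 0.67 (exact permutation p = 0.229, n = 4 per group, adjusted over the 15 tests p = 0.306). Within slide 1, where untreated 12 and 13 met Th17 12, Psmb9 was -0.23 from the untreated mean after Th17 supernatant, within slide 2, where untreated 14 met Th17 13, it was 2.36 above, and within slide 3 it was 0.49 above. The other 4 pairs had means of 0.34 to 0.48 and exact permutation p of 0.257 to 0.429.

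Th17 13 stood apart in wider terms. Th17 13 was the highest Th17 array for 23 of the 41 subunits (56.1%), where it was the highest for 27.7% of all genes. Such a share was not particular to it. Th1 14 was the highest Th1 array for 22 of the 41 (53.7%), where it was so for 23.2% of all genes. On Th17 13 the immune subunits lay a median of 1.23 above their untreated means on the log2 scale, and the constitutive subunits 0.12 above. On the Th1 arrays these medians were 2.23 to 2.46 and 0.26 to 0.46. In a principal component analysis of all genes, the leading component (70.3% of the variance) put Th17 13 at -29.7, the other Th17 arrays at -59.1 to -46.9 and the Th1 arrays at 86.0 to 111.9. Of the genes called higher after Th1 supernatant, 48.3% had their highest Th17 value on Th17 13. Th17 14 was next, with immune subunits at a median of 0.42 above the untreated means. The labels give no reason for these differences between arrays of 1 group, and their cause was not tested.

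**Figure D4:**
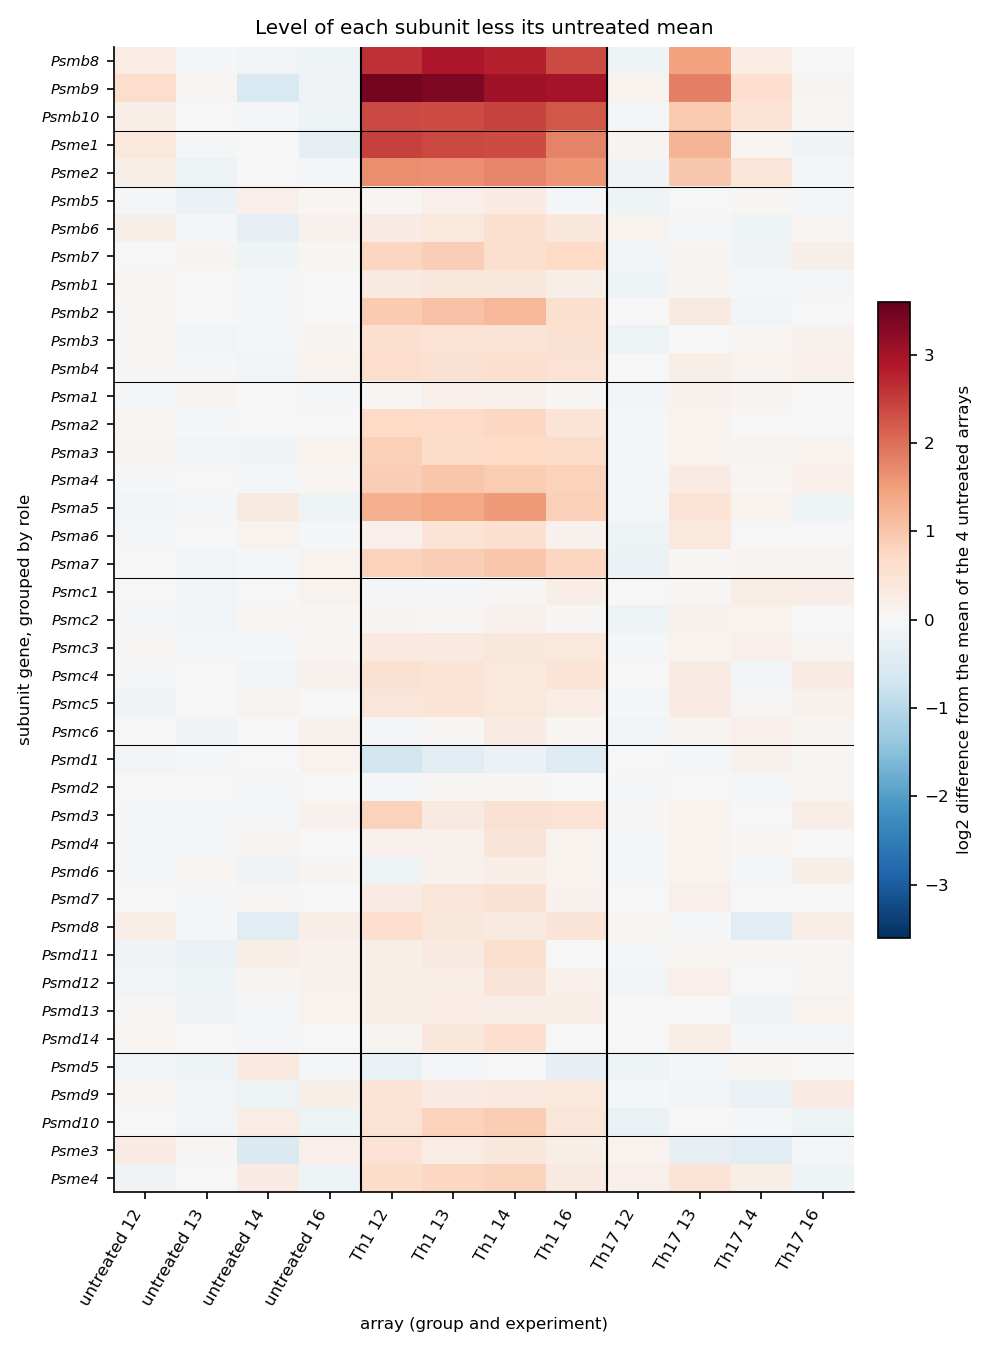
Log2 level of each subunit (rows, grouped by role) on each array (columns) less its mean over the 4 untreated arrays, in colour. The immune subunits in the top rows are high on all 4 Th1 arrays, intermediate on Th17 13 and near their untreated level on Th17 12 and Th17 16, while Psmd1 is low on the Th1 arrays.

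Set directly against Th17 supernatant, Th1 supernatant gave higher levels of the same 6 subunits. The Th1 arrays are those of the comparison above, so this is not separate evidence. At the threshold, 6.89% of all genes were called higher and 7.91% lower. The log2 fold changes were 2.55 ± 0.36 for Psmb9, 2.29 ± 0.29 for Psmb8, 1.98 ± 0.19 for Psmb10, 1.92 ± 0.28 for Psme1, 1.36 ± 0.21 for Psme2 and 1.15 ± 0.18 for Psma5, with adjusted p of 1.28e-05 to 0.000356. Every Th1 array lay above every Th17 array for each of them, Th17 13 included. Whatever the size, 17 subunits passed as higher, among them Psmd10 (0.79 ± 0.14), and 1 as lower, Psmd1 (-0.48 ± 0.11, adjusted p = 0.00445), where 13.4% of all genes passed as higher and 15.8% as lower. Psmd1 did not pass without Th1 12, Th1 13, Th1 16, Th17 12, Th17 14 or Th17 16, and its adjusted p without 1 array was at most 0.0153. The pair differences were 2.11 for Psmb8 and Psmb5, 2.13 for Psmb9 and Psmb6, 1.27 for Psmb10 and Psmb7 and 1.41 for Psme1 and Psme3, each at the smallest exact permutation p of 0.0286. Psme2 minus Psme3 differed by 0.85 with an exact permutation p of 0.0571 (0.0857 adjusted), and Th17 13 reached into the range of the Th1 arrays there. That test ignores the experiment. Within experiments 12, 13, 14 and 16 the same difference was 1.40, 0.10, 0.56 and 1.34, positive in all 4, and a paired exact permutation test on 4 experiments cannot go below its value here of 0.125.

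Genes that act around the proteasome were taken as lists by function. Of 14 transcriptional regulators of proteasome genes, 5 were called higher after Th1 supernatant and 0 lower, the median being 0.29, where 7.49% of all genes were called higher. Irf1, the interferon-induced activator of Psmb9 and Tap1, was at 12.57 to 13.57 in untreated microglia and at 17.31 to 17.48 after Th1 supernatant (4.34 ± 0.25, adjusted p = 1.8e-07). Nlrc5, the transactivator of MHC class I genes, rose by 3.65 ± 0.32 and Stat2 by 3.23 ± 0.34. Nfya, a subunit of the promoter-binding factor NF-Y, passed as lower at under 2-fold (-0.84 ± 0.11), as 16.2% of all genes did at any size. It is named after its value was seen. Nfe2l1, which drives constitutive subunit genes when proteasome activity is short, was at 8.89 to 9.19 against 9.26 to 9.78 and did not pass (0.41 ± 0.14, adjusted p = 0.0351). Against Th17 supernatant it passed at under 2-fold (0.55 ± 0.14, adjusted p = 0.00928).
On Th17 13 most of the regulators that rose after Th1 supernatant were high. Irf1 was at 14.38 there against 13.34 to 13.86 on the other Th17 arrays, and Nlrc5 at 12.21 against 10.51 to 11.48. Th17 13 was the highest Th17 array for 4 of the 5 regulators called. It was so for 27.7% of all genes and for 48.3% of those called higher after Th1 supernatant. The exception among the 5 regulators was Irf8, a myeloid transcription factor, which rose by 1.24 ± 0.12 after Th1 supernatant. It was at 14.95 on Th17 13, the lowest of the Th17 arrays and below the untreated range of 15.07 to 15.23.

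Of 22 measured assembly, inhibitor and associated factors, 1 was called higher after Th1 supernatant and 0 lower, a share near the 7.49% of all genes called higher. This was Psmf1 (PI31), which was first described as an inhibitor of the core in vitro (1.02 ± 0.21, adjusted p = 0.00229). Pomp, the chaperone that helps new cores mature, was at 15.31 to 15.47 in untreated microglia and at 16.17 to 16.23 after Th1 supernatant. It rose by 0.82 ± 0.09 (adjusted p = 1.74e-05), which is under 2-fold. Whatever the size, 6 factors passed as higher and 3 as lower, where 13.9% and 16.2% of all genes did. The 3, named after their values were seen, were Ubqln2 (-0.93 ± 0.12), which shuttles ubiquitinated proteins, Zfand5 (-0.88 ± 0.12), a stimulator of the proteasome, and Usp14 (-0.83 ± 0.13), a deubiquitinase of the cap. Of the tissue-restricted subunits, the testis form Psma8 changed by 1.02 ± 0.62 and did not pass (adjusted p = 0.206), and the thymic Psmb11 was too dim to be tested.

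A list of 10 genes for peptide transport, trimming and class I loading held Nlrc5 as well, which is counted among the regulators above. Of the 10, 6 were called higher, Nlrc5 among them, and 0 lower, with a median of 2.06. Of all genes 7.49% were called higher and 7.88% lower. Tap1 was at 9.17 to 10.19 in untreated microglia and at 13.74 to 14.06 after Th1 supernatant (4.28 ± 0.36, adjusted p = 3.4e-06). Tapbpl, a peptide editor, rose by 3.54 ± 0.26 and Tap2, the transporter partner of Tap1, by 2.52 ± 0.16. On Th17 13 Tap1 was at 11.29, against 9.48 to 10.26 on the other Th17 arrays. Th17 13 was the highest Th17 array for all 6 called genes of this list, Nlrc5 again included. It was so for 27.7% of all genes and for 48.3% of those called higher after Th1 supernatant.
Of 11 cytosolic peptidases that trim or destroy proteasome products, 1 was called higher, the leucine aminopeptidase Lap3 (2.78 ± 0.12, adjusted p = 1.7e-08), a share near the 7.49% of all genes. It was at 13.26 to 13.35 in untreated microglia and at 15.86 to 16.20 after Th1 supernatant. Passing as lower at under 2-fold, as 16.2% of all genes did at any size, and named after their values were seen, were Ide (-0.72 ± 0.15), Blmh (-0.60 ± 0.13) and Prep (-0.51 ± 0.13).
Of 13 genes of ubiquitin and its relatives, 6 were called higher, Ubd among them, and 0 lower. The shares of all genes called were 7.49% higher and 7.88% lower. Ubd (FAT10), a ubiquitin-like tag that sends proteins to the proteasome, was well above background on the 4 Th1 arrays only. It thus entered the fit only through the group where it is high, so its call is not evidence and no p is given. Its level was at least 45.7-fold higher after Th1 supernatant than in untreated microglia. The bound was set by the lowest signal well above background on each untreated array. Isg15 rose by 5.14 ± 0.76, Usp18, which removes ISG15, by 4.67 ± 0.92 and Herc6, which attaches it, by 3.28 ± 0.34. The polyubiquitin gene Ubb passed at 0.47 ± 0.10 (adjusted p = 0.00363). Of the 13 genes 2 passed as lower at under 2-fold, a share near the 16.2% of all genes that did at any size. Named after their values were seen, these were Rps27a (-0.56 ± 0.11), which encodes ubiquitin fused to a ribosomal protein, and the conjugating enzyme Ube2l3 (-0.50 ± 0.10). After Th17 supernatant 0 genes of these lists were called.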

How the data were processed

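RNA of primary mouse microglia was measured on 12 one-colour Agilent arrays. The deposited scanner files hold the processed signal as linear intensity from Agilent Feature Extraction 10.7.3.1, and the authors' deposited value table holds log2 values centred per probe, with direction and scale matched to the scanner values on 15898 probes (r of at least 0.99999, column medians -0.2254 to 0.1799). As in the study's methods, spots of a probe were averaged (geometric mean, without marked spots), arrays were quantile normalised, scaled to a 75th percentile of 1500 and floored at 15 before log2. Marked spots are the scanner software's outliers and manual flags. Unlike in those methods, no separate filter on the interquartile range of normalised on-chip replicates was applied, and the microglia arrays were normalised without the study's astrocyte arrays. A probe entered the fit where at least 4 of the 12 arrays showed it well above background, and the brightest kept probe stood for a gene. Group means were fitted over all 12 arrays with limma 3.58.1 in R 4.3.3, with Benjamini-Hochberg adjustment over 19801 genes. The fit was run on simulated data with independent noise on each array. Those data held no effect of experiment and cannot show how the pairing of arrays bears on the fit. The precision is limited by 4 arrays per group. The labels name 4 experiments, which the study describes as independent. Arrays of the same experiment number deviated together (r of 0.244 to 0.634 over 12 pairs), so the numbers pair the arrays, and the block on them was an alternative. Genes were named by a rule: all members, and of each related list the called genes with the largest changes and a few regulators. The members, lists and rules were chosen with earlier results of these data known. Alternatives changed the scaling, background, floor, filter, probe choice, samples and slide. A filter on pixel variation was not run because the files used here hold no such column. Some genes of the related lists are not reported here.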

Additional observations from a re-analysis of the deposited data

Results flagged for a closer look

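Of 123 groups of 4 arrays, 1 for each subunit and treatment, 6 held an array that stood apart from the other 3, and chance gives about 1 in 20. Values are on the log2 intensity scale. Psme1 was at 15.629 on Th17 13, with the nearest Th17 array at 14.494, and at 16.185 on Th1 16, with the nearest Th1 array at 16.749. Psmd7 was at 13.381 on Th17 13, with the nearest at 13.208. Psma7 was at 15.33 on Th17 12, with the nearest at 15.594. Psmd3 was at 15.464 on untreated 16, with the nearest at 15.262, and Psmd4 was at 15.7 on Th1 14, with the nearest at 15.394. The causes were not tested.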

How the results depend on the processing

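The 6 calls over 2-fold in either Th1 comparison were kept with the replicate block on experiment number, the slide as a block, 75th percentile scaling, the deposited value table and normexp. With the replicate block 24 subunits passed as higher at any size and 1 as lower against untreated, and 21 and 1 against Th17. Over all genes 3491 then passed as higher and 4521 as lower against untreated, in place of 2749 and 3207. Against Th17 these were 3401 and 4334, in place of 2663 and 3121. With this block 6 subunits were over 2-fold in each Th1 comparison and 0 after Th17 supernatant. Over 2-fold against untreated, 3405 of all genes were called in place of 1484 higher and 1560 lower. The pair differences were unchanged by construction. A paired exact permutation test within experiments, chosen after seeing the data, gave 0.125, its smallest possible p, for all 5 pairs in both Th1 comparisons. With 75th percentile scaling and with the deposited value table, 10 subunits were over 2-fold in each Th1 comparison. At any size 28 passed as higher against untreated and 30 against Th17, and 0 as lower in either. Over all genes 2996 passed as higher and 2850 as lower against untreated with 75th percentile scaling, and 3064 and 2618 against Th17. Psme2 minus Psme3 against Th17 was then 0.915 (exact permutation p = 0.0286). That pair was 0.918 with normexp, an alternative chosen after seeing the data, and 1.15 with the mean over probes (exact permutation p = 0.0286 each), and with normexp Psmc1 was -0.0011. With only the 8 arrays compared, 0 subunits passed as lower in either Th1 comparison.
Within slide 1, Psmb8 minus Psmb5 was 2.31 for Th1 against untreated. For Th17 against untreated the first 3 pairs were -0.221, -0.273 and -0.0318 and Psme2 minus Psme3 was -0.123. For Th1 against Th17, Psmb9 minus Psmb6 was 3.16 and Psme2 minus Psme3 1.40. Within slide 2, Psmb8 minus Psmb5 was 2.88, Psme1 minus Psme3 1.48 and Psme2 minus Psme3 0.820 for Th1 against untreated, the first 3 pairs were 1.70, 2.14 and 0.755 for Th17 against untreated, and the 5 pairs were 1.17, 0.839, 0.820, 0.488 and 0.0841 for Th1 against Th17. Within slide 3, Psme2 minus Psme3 was 1.62 for Th1 against untreated. These values rest on 1 or 2 arrays a group, and their causes were not tested.
Without single arrays, 6 to 7 subunits were over 2-fold in each Th1 comparison, 16 to 21 passed as higher against untreated and 15 to 19 against Th17, and 0 to 1 as lower in each. Psmc1 against untreated ran from -0.0312 (without Th1 16) to 0.0814. For Th1 against untreated the 5 pairs ran from 2.46 to 2.65, 2.68 to 2.94, 1.52 to 1.70, 1.71 to 2.07 and 1.22 to 1.49, and for Th1 against Th17 from 1.98 to 2.45, 1.91 to 2.54, 1.10 to 1.44, 1.23 to 1.76 and 0.606 to 1.12. For Th17 against untreated they ran from 0.0969 to 0.571, 0.263 to 0.891, 0.171 to 0.502, 0.122 to 0.659 and 0.184 to 0.701, each lowest without Th17 13. Whole experiments were left out after seeing the data. Without experiment 14, Psmd2 was -0.010 and Psmd6 -0.0066. Without experiment 13, 13 subunits passed as higher and 0 as lower against untreated, 0 as lower against Th17, and Psme1 after Th17 supernatant was -0.0012.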
